A study of Schizosaccharomyces pombe with 9 samples.

Results

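SD1, an SPQ-01 strain of the fission yeast Schizosaccharomyces pombe that lacks rpl32-1, was compared with its control strain. The comparison used 6 of the 9 arrays of the series: 3 of SD1 and 3 of WT, the control strain SPQ-01. The 3 remaining arrays, of a strain named SD2 that lacks rpl32-2, entered only the estimate of the spread and a few values given side by side. All strains grew in YEPD, a rich glucose medium, at 30 °C to an OD600 of 5.0, a stage the labels call log phase, and each strain's arrays are labelled as biological replicates 1, 2 and 3. Mating type, auxotrophies, the marker that replaced the gene and the number of deletion clones are not given in the sources used here. Nor do they say whether replicates were separate cultures, so p-values measure the spread between these arrays, part of which may be technical.

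The gene rpl32-1, named rpl3201 in the current annotation, encodes L32, a protein of the large subunit of the cytosolic ribosome, and rpl3202 encodes a second copy of the same protein. Ribosomes are assembled mostly in the nucleolus: RNA polymerase I makes the large rRNA precursor, assembly factors and small nucleolar ribonucleoproteins fold, modify and cut it, and the exosome trims and degrades RNA on the way. In yeasts the genes for these steps are known to be transcribed together, high in rapid growth and low under starvation or stress, when genes for stress defence and for the use of poorer carbon sources are high.

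Each array gave 1 RMA value per probe set on a log2 scale, so a difference of 1 is a 2-fold change. The median S. pombe probe set lay at 10.002 to 10.11 on the SD1 arrays and at 10.04 to 10.17 on the WT arrays, and over all 9 arrays the highest value lay between 14.43 and 15.12. The arrays also carry probe sets for budding yeast, whose 95th percentile (5.13 to 5.26) served as the background level. Precision here is set by the 3 arrays per strain, as there is no read depth.

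Several facts about the arrays bear on every result below. The 3 arrays of one number shared exactly equal values (3934 to 4218 per pair for number 1, 74 to 80 for number 2 and 168 to 353 for number 3) and arrays of different numbers shared 0 to 4, so each number was taken as a set that the authors processed together. The WT array numbered 2 stood apart: it correlated with the SD1 arrays at 0.91 to 0.92 (Pearson's r over probe sets), against 0.94 to 0.96 for the other WT arrays. Among the WT arrays it was the lowest for 429 of the 573 probe sets called higher in SD1 and the highest for 513 of the 696 called lower. Results are therefore also given without it. The 18S rRNA probe sets gave a 3' signal minus 5' signal of -0.35, -0.44 and -0.33 on the SD1 arrays, against -0.90, -1.53 and -1.07 on the WT arrays, with no overlap. For 28S rRNA it was 0.34, 0.17 and 0.62 on the SD1 arrays, against -0.47, -0.08 and -0.14 on the WT arrays, also with no overlap. That of the actin gene averaged 0.30 in both strains. The part of these rRNA signals in the results was not tested.

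The deleted gene matched the label. Its level was 4.17, 6.04 and 4.90 on the SD1 arrays, against 13.88, 14.06 and 14.45 on the WT arrays, a difference of -9.09 ± 0.41 (log2, SE, n = 3 each). The SD1 arrays numbered 1 and 3 lay at or below the background level and the one numbered 2 above it. The remaining copy, rpl3202, lay at 14.15, 14.21 and 14.48 in SD1 and at 14.11, 14.24 and 14.38 in WT, and its difference of 0.04 ± 0.34 did not pass the test (limma, Benjamini-Hochberg adjusted p = 0.936). Its levels were close to the top of the scale, which limits the rise that could be seen, although the rpl3201 probe set reached 14.50 to 15.12 in SD2. Probes for such alike copies can bind both RNAs. Each of these probe sets lay far lower in the strain without its gene: rpl3202 was at 7.25, 8.89 and 7.88 on the SD2 arrays.

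Of the 8 nearest genes along the chromosome, 4 to each side of rpl3201, 6 were measured. The nearest gene on one side, chp2, which encodes a heterochromatin protein of the HP1 family, had levels of 8.76, 8.67 and 8.74 in SD1, against 8.09, 7.91 and 7.99 in WT. This difference of 0.73 ± 0.08 passed the test (adjusted p = 0.000283), and the SD1 arrays all lay above the WT arrays. On the other side the nearest gene, las1, was not measured, and the next, sec27, a coat protein gene of Golgi vesicles, fell by 0.39 ± 0.12 (adjusted p = 0.0245). The call on sec27 was lost without SD1 array 3, WT array 1 or WT array 2 and with median centring. Further out, sid4 was at -0.31 ± 0.14 (adjusted p = 0.103; 0.042 with the replicate block, where it was called), and ogm4, qcr6 and rpt1 lay between -0.17 and -0.00 without passing.

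Across the 2937 S. pombe probe sets, 573 (19.5%) were called higher in SD1 and 696 (23.7%) lower, at an adjusted p under 0.05, so that 1269 (43.2%) were called in either direction. At least 2-fold, 158 (5.38%) were higher and 85 (2.89%) lower, and at least 4-fold 18 were higher and 16 lower. The median difference over all probe sets was -0.03. All 3 SD1 arrays lay above all 3 WT arrays for 685 probe sets (23.3%) and below them for 841 (28.6%). Of the 1269 calls 1260 showed such separation, so it adds little to a call. With the replicate number as a block 787 (26.8%) were higher and 969 (33%) lower, and 1257 of the 1269 calls made without the block were made in the same direction with it. Without the WT array numbered 2, 490 were higher and 537 lower, and 132 and 59 by at least 2-fold. Without SD1 array 3, 455 were higher and 497 lower. These shares are the background against which the counts of each gene group below should be read. A list's count under another setting should be read against the count over all probe sets under that setting. Calls occurred at all levels: 17.4% of the probe sets in the dimmest of 4 equal groups were higher and 17.8% lower, against 20.3% and 21.8% of the brightest group.

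**Figure D1:**
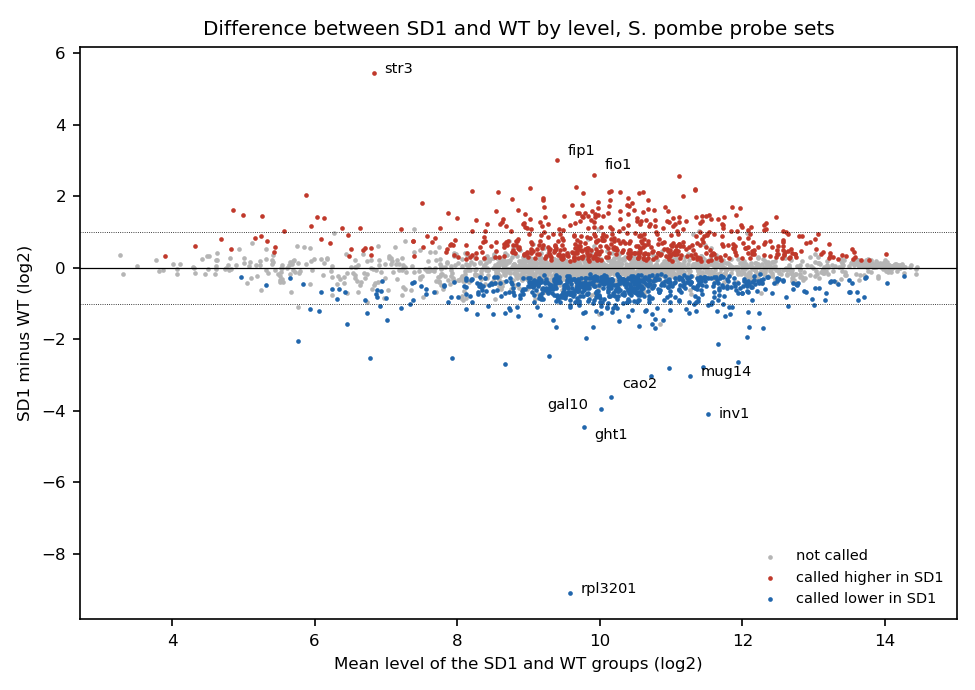
Difference between SD1 and WT (log2) against the mean level of both strains (log2) for the 2937 S. pombe probe sets, with the 573 called higher in red, the 696 called lower in blue, and dotted lines at 2-fold. The deleted gene rpl3201 lies lowest at -9.09, str3, whose WT arrays are at background, lies highest at 5.45, and the sugar genes inv1, ght1 and gal10 lie between -4.44 and -3.94.

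Genes for assembly of the large ribosomal subunit were higher in SD1. Of 28 measured (55 listed), 25 rose and 1 fell, with a median difference of 1.61 (log2). The gene mak16, for a factor of large-subunit assembly, had levels of 10.96, 10.57 and 10.85 in SD1, against 8.68, 8.16 and 8.78 in WT, and rose 4.77-fold (2.25 ± 0.16, adjusted p = 6.7e-05). The lowest SD1 array lay well above the highest WT array. The factor gene rlp24 followed closely at 11.76, 11.34 and 11.71 in SD1, against 9.59, 9.25 and 9.69 in WT (2.10 ± 0.14). The putative helicase gene dbp3 rose 4.45-fold, the pescadillo-family gene ppp1 4.33-fold, sda1 4.7-fold and the nucleolar GTPase gene grn1 4.07-fold. Smaller but among the 8 most certain calls were those of the GTPase gene nog1 (1.69 ± 0.12) and of rlp7 (1.15 ± 0.06). For rlp7 the levels were 12.56, 12.55 and 12.59 in SD1, against 11.42, 11.35 and 11.47 in WT. The 1 member that fell, urb2 (-0.46 ± 0.13, adjusted p = 0.0184), is named for its direction after its value was seen, and its call was lost without SD1 array 2 or SD1 array 3 and with median centring or quantile normalization.

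For the small subunit, 18 of 19 measured genes (56 listed) rose and 0 fell, with a median of 1.28. The list covers the processome, the particle in which the small-subunit rRNA is first folded and cut, and later steps. The nucleolin-like gene gar2 had 12.58, 12.15 and 12.54 in SD1, against 10.34, 9.997 and 10.38 in WT (2.18 ± 0.14, adjusted p = 6.7e-05). The helicase gene rok1 lay at 9.79, 9.75 and 9.68 in SD1, against 8.19, 7.06 and 8.16 in WT (1.94 ± 0.27), with the WT array numbered 2 more than 1 log2 unit below the other WT arrays. The processome genes utp4, nop14 and utp13 and the later factor gene pno1 rose 2.7-fold to 3.4-fold. The 1 gene not called, tsr3, was at -0.04 ± 0.09.

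The proteins of the small nucleolar particles that guide rRNA modification rose in 7 of 9 cases (12 listed) with a median of 0.72. These were the pseudouridylation particle genes gar1 (1.26 ± 0.21), nhp2 (1.01 ± 0.12), nop10 (0.83 ± 0.14) and cbf5 (0.70 ± 0.12), and the methylation particle genes fib1 (0.90 ± 0.10) and snu13 (0.72 ± 0.11). The seventh was shq1 (0.64 ± 0.08), an assembly factor gene named after its value was seen. None of the list fell. All 8 measured genes of the nuclear exosome and its cofactors (16 listed) rose, with a median of 1.07. The poly(A) polymerase gene cid14 had 9.89, 9.67 and 9.82 in SD1, against 8.74, 8.12 and 8.70 in WT (1.28 ± 0.16), the helicase gene mtr4 was at 1.18 ± 0.12 and the nuclease gene rrp6 at 1.16 ± 0.15.

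RNA polymerase I followed the same direction, with 11 of 14 measured genes higher and 0 lower (with the block 1 lower, rrn11), and a median of 1.39. Its second-largest subunit gene, rpa2, had 11.18, 11.14 and 11.37 in SD1, against 9.82, 9.66 and 9.97 in WT (1.41 ± 0.10, adjusted p = 6.7e-05). The small subunit gene rpa12 rose 3.16-fold, rpa34 3.31-fold and rpa49 3-fold. The gene of the initiation factor that recruits the polymerase to rDNA, rrn3, rose 2.89-fold. The 3 genes not called, the promoter factors rrn7 and rrn11 and spp27, lay between -0.26 and -0.07. RNA polymerase III, which makes tRNAs and 5S rRNA, had 11 of 19 measured genes higher and 1 lower (median 0.55; 2 lower without WT array 1 or with the block). Its subunit genes rpc82 (1.16 ± 0.08), rpc34 (1.15 ± 0.10), rpc37 (0.94 ± 0.09) and rpc11 (0.90 ± 0.12) rose, as did bdp1 (1.24 ± 0.14), a gene of its initiation factor TFIIIB. All 5 measured genes of the promoter factor TFIIIC (sfc1, sfc3, sfc4, sfc6 and sfc9), singled out after their values were seen, lay between -0.51 and 0.19, and the 1 call among them was sfc6, which fell by 0.51 ± 0.10. With the block sfc1 was called lower too.

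**Figure D2:**
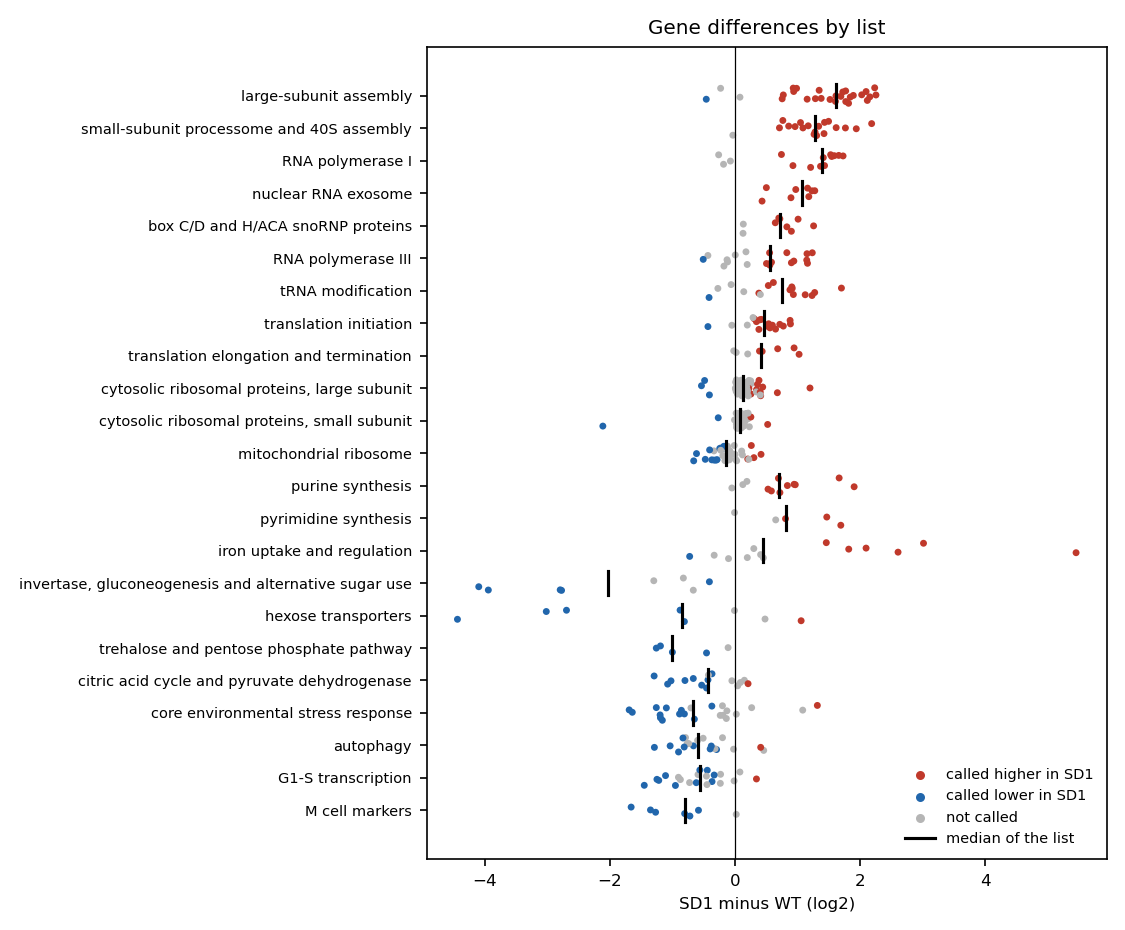
Each point is the SD1 minus WT difference (log2) of 1 gene, grouped by list, with the list's median as a black bar, calls in colour and genes not called in grey. The assembly, polymerase I and exosome lists lie almost wholly to the right of 0, the cytosolic ribosomal proteins close to 0 (medians 0.13 and 0.08), and the sugar, trehalose and citric acid cycle lists to the left.

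The ribosome production lists were checked against the WT array numbered 2, which was the lowest WT array for all 18 called small-subunit genes, for 25 of the 26 called large-subunit genes, for 10 of 11 called polymerase I genes and for all 8 exosome genes. Without it the same numbers of genes were called higher (25, 18, 11 and 8 for large subunit, small subunit, polymerase I and exosome), with medians of 1.44, 1.14, 1.24 and 0.89. Within each replicate number the median difference of the large-subunit list was 1.60, 1.77 and 1.46 for numbers 1, 2 and 3, and that of the small-subunit list 1.21, 1.45 and 1.16. The SD1 array numbered 2 was also often the lowest of its strain. This held for 11 of the 18 called small-subunit genes, 23 of the 26 large-subunit genes, 9 of the 11 polymerase I genes and 4 of the 8 exosome genes.

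Further along the path to protein, tRNA modification had 11 of 16 measured genes higher and 1 lower (median 0.75). The pseudouridine synthase gene pus1 had 10.19, 10.01 and 10.02 in SD1, against 8.64, 7.94 and 8.54 in WT (1.70 ± 0.17), and the pair encoding the tRNA methyltransferase trm6 and trm61 were at 1.12 ± 0.13 and 0.93 ± 0.11. The wobble thiolation genes ctu2 and ctu1 were at 1.27 ± 0.23 and 0.91 ± 0.11. The 1 fall was trz1 (-0.42 ± 0.13), a tRNA 3' processing nuclease gene named after its value was seen, lost with the block, with median centring or quantile normalization, and without SD1 array 2, SD1 array 3 or WT array 2. Translation initiation had 14 of 18 measured genes higher and 1 lower (median 0.46), and 11 higher and 1 lower without WT array 2. Here tif225, a subunit gene of the exchange factor eIF2B, had 11.05, 10.94 and 11.06 in SD1, against 10.27, 9.94 and 10.19 in WT (0.89 ± 0.09). The genes tif11 (eIF1A), sum3 (a helicase) and sce3 (eIF4B) rose by 0.65 to 0.88. Elongation and termination had 5 of 8 measured genes higher and 0 lower, among them the release factor gene erf1 (1.02 ± 0.11) and rli1 (0.94 ± 0.12), an ATPase of ribosome recycling. Except where a block count is given, the block changed the number of calls in these ribosome and translation lists by less than 1.5 times.

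Of the ribosomal proteins themselves few were called without the replicate block. Of 72 measured large-subunit protein genes, rpl3201 and rpl3202 left out, 10 were higher and 3 lower (median 0.13; 0.079 without WT array 2). With quantile normalization 19 were higher. With the block 41 were higher and 3 lower, and the count of rises was 5 without SD1 array 1, 6 without SD1 array 3 or WT array 2, and 17 without WT array 1. Of 45 small-subunit protein genes 2 were higher and 2 lower (median 0.08, and 0.035 without WT array 2; block 13 and 2; 1 lower with median centring), and each of these counts was 1 without some single arrays: the rises without SD1 array 2 or 3 or WT array 2 or 3, the falls without SD1 array 1 or 3 or WT array 3. As with rpl3202, most lie near the top of the scale, which limits measured rises.

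Within families of ribosomal protein genes, the copies could differ widely, although probes for near-identical copies can bind both RNAs and such splits are uncertain. The widest gap after L32 was that of S14: rps1401 had 10.29, 10.85 and 10.68 in SD1, against 12.46, 12.84 and 12.85 in WT, and fell 4.33-fold (-2.11 ± 0.17, adjusted p = 0.000101). Its copy rps1402 had 14.03, 13.74 and 13.73 in SD1, against 14.03, 13.69 and 13.74 in WT (0.02 ± 0.13). For L34 the direction was opposite, with rpl3402 at 12.89, 12.80 and 13.02 in SD1, against 11.66, 11.57 and 11.88 in WT (1.20 ± 0.10), and rpl3401 at 0.06 ± 0.07. In both families 1 copy differed with no overlap between strains while the other lay within 0.1 of WT on average. The gaps of the next families were smaller: rpl102 rose by 0.68 ± 0.15 beside 0.01 ± 0.06 for rpl101, while rpl3002 fell by 0.54 ± 0.15 and rpl1603 by 0.49 ± 0.09 beside copies at 0.08 for L30 and at most 0.11 for L16. The call on rpl3002 was lost without SD1 array 2. Of the 40 families with 2 or more measured copies, 7 had a gap over 0.4 between their highest and lowest copy, rpl32 included.

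**Figure D3:**
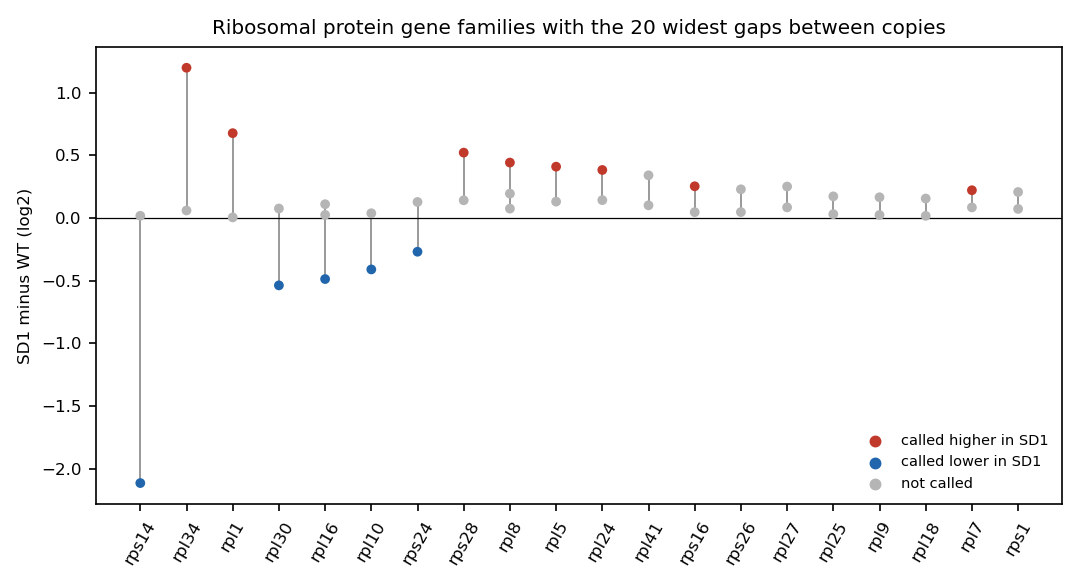
SD1 minus WT difference (log2) of each measured copy in the 20 ribosomal protein gene families with the widest gaps, the L32 pair left out; a grey line joins the copies of a family. One S14 copy lies at -2.11 and one L34 copy at 1.20, each beside a copy within 0.1 of 0.

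In the mitochondrial ribosome 4 of 39 measured genes were higher and 12 lower (median -0.14), beside 19.5% higher and 23.7% lower over all probe sets. The falls numbered 5 to 7 without SD1 array 2, SD1 array 3 or any single WT array, 6 with median centring and 7 with quantile normalization, and the rises numbered 1 or 2 without SD1 array 1, SD1 array 3 or WT array 3. The larger falls were those of mrp10 (-0.66 ± 0.13) and mrpl38 (-0.62 ± 0.14).

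Nucleotide synthesis genes were higher in SD1. Of the 12 purine synthesis genes, all measured, 9 rose and 0 fell (median 0.71), and all 3 called pyrimidine genes of 5 measured rose (median 0.81). The dihydroorotate dehydrogenase gene ura3 had 12.70, 12.60 and 12.80 in SD1, against 11.04, 10.75 and 11.23 in WT (1.69 ± 0.12, adjusted p = 6.7e-05), and the strains lay far apart beside the spread within either. The orotate phosphoribosyltransferase gene ura5 was at 1.47 ± 0.16 and ura1, for the first steps of the pathway, at 0.81 ± 0.09. The 2 others, ura2 and ura4, did not pass, at -0.01 ± 0.06 and 0.65 ± 0.24; with the block (adjusted p = 0.00226), with quantile normalization or without WT array 1, ura4 was called. For purines, ade9, a folate enzyme gene that supplies carbon units, had 11.15, 10.91 and 11.23 in SD1, against 9.33, 8.79 and 9.45 in WT (1.90 ± 0.18), and the GMP synthase gene gua2 had 12.68, 12.73 and 12.97, against 10.98, 10.98 and 11.41 in WT (1.66 ± 0.15). The IMP dehydrogenase gene gua1 (0.94 ± 0.10), ade6 (0.96 ± 0.18) and ade8 (0.84 ± 0.12) rose as well. In the uptake and scavenging list, the adenine deaminase gene dea2 had 11.28, 11.29 and 11.47 in SD1, against 9.31, 8.87 and 9.51 in WT (2.12 ± 0.15), the uracil permease gene fur4 was at 1.46 ± 0.17, and the ammonium transporter genes amt1 and amt2 at 1.44 ± 0.32 and 0.94 ± 0.13. The arginase gene car1 (-1.13 ± 0.17) and the vacuolar aminopeptidase gene ape4 (-1.004 ± 0.10) fell, and the list as a whole had 6 of 23 higher and 3 lower.

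Amino acid pathways were mixed, and are to be read beside 19.5% of all probe sets higher and 23.7% lower. Arginine synthesis had 3 of 8 higher and 1 lower (block 2 lower): the carbamoyl phosphate synthase genes arg5 (1.18 ± 0.12) and arg4 (1.09 ± 0.11) and the aminotransferase gene arg1 (0.95 ± 0.09) rose, and the last-step gene arg7 was at 8.68, 8.40 and 8.60 in SD1, against 9.27, 9.32 and 9.24 in WT (-0.72 ± 0.12). Lysine and histidine synthesis had 6 of 11 higher and 1 lower, with a rise of 0.90 ± 0.16 for his5 and a fall of 0.55 ± 0.07 for his7. In this list 2 were lower without SD1 array 2 or with the block. Glutamate, serine, glycine and proline metabolism had 6 of 11 higher and 3 lower. There, the proline synthesis gene pro1 rose (0.81 ± 0.09), and the glutamate synthase gene glt1 rose (0.90 ± 0.16) while both glutamate dehydrogenase genes, gdh1 (-0.65 ± 0.15) and gdh2 (-0.82 ± 0.13), fell. The sulfur pathway had 5 of 11 higher and 0 lower, or 3 higher without SD1 array 3 or WT array 2 and 1 lower with the block, with the largest rise that of the acetyltransferase gene cys2 (0.76 ± 0.09). The branched-chain and aromatic list had 3 higher and 3 lower of 13 (1 lower without WT array 3).

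Iron enters fission yeast by a reductive route, in which ferric iron is reduced at the surface and then oxidised and imported, and bound to siderophores. In the list of iron uptake and regulation 6 of 13 measured genes rose and 1 fell (median 0.45, without WT array 2 0.39 with 5 and 1; 2 fell without SD1 array 2). The largest rise of the whole comparison was that of str3, a siderophore-type transporter gene, with 9.34, 9.64 and 9.69 in SD1, against 4.86, 2.51 and 4.94 in WT. All WT arrays were at background, so its rise is given as at least 20.7-fold (adjusted p = 0.000244). The permease gene fip1 had 10.92, 10.71 and 11.08 in SD1, against 8.16, 7.27 and 8.24 in WT (3.01 ± 0.27), and the multicopper oxidase gene fio1 had 11.02, 11.41 and 11.23 in SD1, against 8.89, 7.75 and 9.20 in WT (2.61 ± 0.38). These 2 genes are neighbours in the genome. The ferric reductase gene frp1 had 10.27, 11.89 and 10.27 in SD1, against 9.28, 7.57 and 9.30 in WT (2.10 ± 0.54, adjusted p = 0.0138), and the ferrichrome transporter gene str1 had 11.98, 12.80 and 11.88, against 11.21, 9.85 and 11.22 in WT (1.46 ± 0.38).

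These iron genes were among the least even between replicate numbers. For frp1 the same-number differences were 0.99, 4.32 and 0.97 for numbers 1, 2 and 3, for str1 0.76, 2.95 and 0.66, and for fio1 2.12, 3.66 and 2.03: number 2 gave the widest gap in each, with SD1 array 2 the highest and WT array 2 the lowest of their strains. The call on str1 was lost without SD1 array 2 (adjusted p = 0.0501), and that on frp2 (1.82 ± 0.64) in the fit of the SD1 and WT arrays alone and without SD1 array 2, SD1 array 3, WT array 1 or WT array 2. With the block on the SD1 and WT arrays alone, neither str1 nor frp1 passed (adjusted p = 0.0911 and 0.099). By contrast fip1 gave 2.76, 3.44 and 2.84. The 1 fall was sib2 (-0.73 ± 0.13), a ferrichrome synthesis gene, and the repressor genes fep1 (0.41 ± 0.20) and php4 (0.45 ± 0.30) did not pass, though php4 did without SD1 array 1; these were singled out after their values were seen. Copper and zinc transport had 5 of 11 higher and 1 lower, or 3 higher without SD1 array 2. The copper transporter genes ctr5 (1.49 ± 0.23) and ctr4 (1.97 ± 0.54) rose. The call on ctr4 was lost without SD1 array 2, where its difference was 1.46, and without number 2 or number 3. The zinc importer gene zrt1 had 12.02, 12.09 and 12.15 in SD1, against 11.12, 10.92 and 11.33 in WT (0.96 ± 0.12), and the low-affinity metal transporter gene fet4 fell by 1.15 ± 0.23. Without SD1 array 2 or WT array 1, or with the block, 2 genes of this list were lower.

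**Figure D4:**
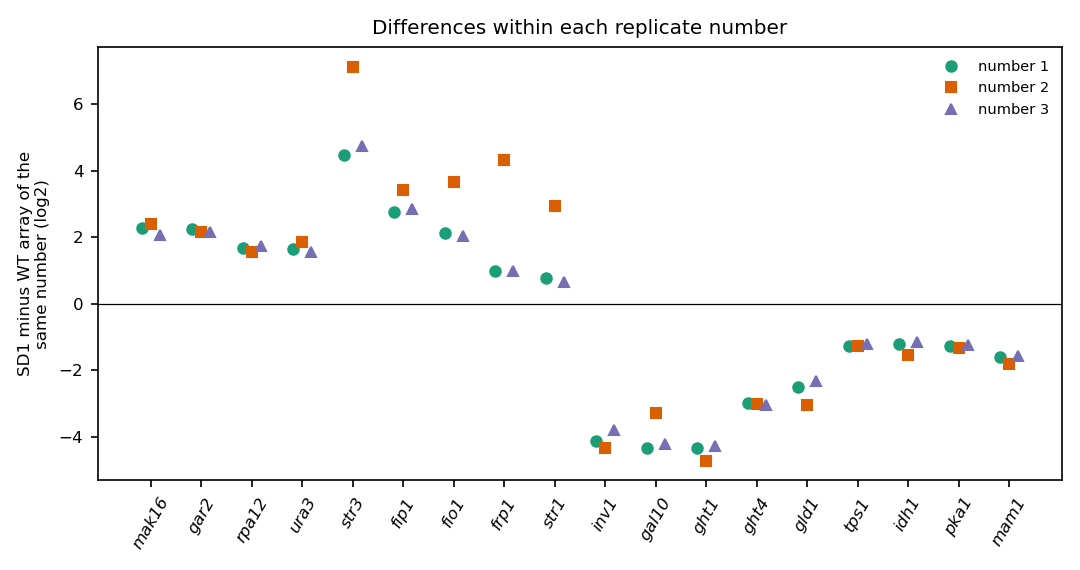
Differences (log2) between the SD1 and the WT array of the same replicate number for 18 genes of the ribosome, nucleotide, iron, sugar, energy and mating groups. Number 2 lies apart from numbers 1 and 3 for str3, fio1, frp1 and str1, while gar2, rpa12, ght4, tps1 and pka1 give nearly the same difference in all 3. For str3 all WT arrays were at background, so the size and unevenness of its differences are uncertain.

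The invertase gene and the galactose genes were far lower in SD1. Of 8 measured genes in the list of invertase, gluconeogenesis and alternative sugar use 5 fell and 0 rose (median -2.04; 7 fell with the block; without WT array 2, 4 fell with a median of -1.58). The secreted invertase gene inv1, whose enzyme splits sucrose, had 9.40, 9.81 and 9.20 in SD1, against 13.53, 14.16 and 13.02 in WT, and was 17.1-fold lower (-4.10 ± 0.27, adjusted p = 6.7e-05). The galactose genes gal7 (-2.80 ± 0.21), gal10 (-3.94 ± 0.47) and gal1 (-2.77 ± 0.25) fell together. Smaller differences were those of mal1, which fell by 0.41, and of mel1 (-0.83) and aes1 (-0.67), not called without the block. The latter genes are named after their values were seen. The gene gal10 had 7.31, 9.24 and 7.58 in SD1, against 11.64, 12.53 and 11.80 in WT, with array 2 the highest of both strains. The gluconeogenic gene fbp1 had 8.41, 9.49 and 10.13 in SD1, against 9.04, 12.14 and 10.75 in WT: the strains overlapped and it did not pass (-1.30 ± 0.79, adjusted p = 0.218), but each same-number difference was below 0 (-0.63, -2.65 and -0.62) and with the block it was called (adjusted p = 0.0421).

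Hexose transporter genes split. Of the 8, 5 fell and 1 rose (with the block 4 and 2; median -0.84, without WT array 2 -0.62 with the same counts). The gene ght1 had 8.55, 7.59 and 6.53 in SD1, against 12.88, 12.31 and 10.80 in WT (-4.44 ± 0.77), ght4 had 9.57, 9.48 and 8.59, against 12.56, 12.50 and 11.62 in WT (-3.02 ± 0.41), and ght3 had 7.36, 7.76 and 6.85, against 10.27, 10.18 and 9.60 in WT (-2.69 ± 0.26). In these 3 genes number 3 gave the lowest array of both strains, so that the same-number differences were alike (-2.99, -3.02 and -3.03 for ght4). The high-affinity glucose transporter gene ght5 fell by 0.81 ± 0.15. The fall of ght7 (-0.88 ± 0.28) was not called with the block (adjusted p = 0.0522) and was lost without SD1 array 1 or SD1 array 2 or SD1 array 3. In contrast ght8 rose, at 12.73, 12.88 and 12.87 in SD1, against 11.73, 11.67 and 11.91 in WT (1.06 ± 0.10, adjusted p = 0.000121).

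Signalling genes of glucose sensing were lower in 10 of 23 cases and higher in 1 (median -0.33; 9 and 1 without WT array 2; 2 higher with median centring or quantile normalization). The catalytic subunit gene of protein kinase A, pka1, had 9.93, 10.28 and 10.04 in SD1, against 11.22, 11.61 and 11.27 in WT (-1.28 ± 0.13), and the adenylate cyclase gene cyr1 had 9.96, 10.21 and 10.10, against 10.87, 11.08 and 11.002 in WT (-0.90 ± 0.11). The AMP-activated kinase genes amk2 (-0.70 ± 0.09) and ssp2 (-0.65 ± 0.12) fell too. The repressor gene scr1 did not pass (-0.02 ± 0.12), and the 1 rise, that of the G protein gene gpa2 (0.50 ± 0.16), was lost with all probe sets in the fit and without SD1 array 1, SD1 array 3, WT array 1 or WT array 3; both are named after their values were seen. In glycerol metabolism 4 of 7 genes fell and 1 rose: the glycerol dehydrogenase gene gld1 had 10.09, 11.05 and 10.75 in SD1, against 12.59, 14.10 and 13.06 in WT (-2.62 ± 0.39), and the dihydroxyacetone kinase gene dak1 was at -0.89 ± 0.16. The call on gut2 (-1.23 ± 0.33) was lost without SD1 array 3 or WT array 2.

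Central energy metabolism shifted in part. In glycolysis and fermentation 3 of 13 genes fell and 1 rose (block 7 and 2; 5 fell with quantile normalization): pgi1 (-0.68 ± 0.10), hxk1 (-0.65 ± 0.12) and hxk2 (-0.66 ± 0.15) for the first steps fell, and the alcohol dehydrogenase gene adh4 had 10.88, 10.86 and 11.17 in SD1, against 9.45, 9.52 and 9.80 in WT (1.38 ± 0.14). The citric acid cycle list had 9 of 15 lower and 1 higher (median -0.43; 7 lower without WT array 2; 2 higher with the block). Both isocitrate dehydrogenase genes, idh1 (-1.29 ± 0.13) and idh2 (-1.08 ± 0.12), and the citrate synthase gene cit1 (-1.02 ± 0.14) fell, and idh1 had 11.19, 11.24 and 11.12 in SD1, against 12.39, 12.77 and 12.27 in WT. The rise, lsc1 (0.21 ± 0.06), named after its value was seen, was lost without any single array other than WT array 3. The pyruvate dehydrogenase genes pda1, pdb1, lat1 and pdx1, likewise singled out, lay between -0.05 and 0.15. None of them was called, apart from lat1 with the block. The gene dld1, for the dihydrolipoamide dehydrogenase of that complex, was called lower (-0.43). The respiratory chain and ATP synthase had 4 of 29 lower and 0 higher (block 11 lower; 8 with quantile normalization; 7 without SD1 array 1 and 2 without SD1 array 3). Trehalose genes fell: of 5 measured genes of the trehalose and pentose phosphate list 4 fell (median -1.001), among them the synthase gene tps1 with 11.56, 11.82 and 11.43 in SD1, against 12.84, 13.09 and 12.65 in WT (-1.26 ± 0.16), the phosphatase gene tpp1 (-1.001 ± 0.09) and the trehalase gene ntp1 (-1.19 ± 0.14).

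The core environmental stress response is the group of genes that fission yeast induces under most stresses. Of 22 genes 12 were lower in SD1 and 1 was higher (median -0.68); without WT array 2, the highest WT array for 11 of the 13 called genes, 8 were lower and the median was -0.48. With the block 2 were higher. The Hsp70 gene ssa1 had 11.08, 12.11 and 11.13 in SD1, against 12.98, 13.49 and 12.93 in WT (-1.69 ± 0.31), and the co-chaperone gene psi1 had 11.13, 11.60 and 11.08, against 12.94, 13.06 and 12.74 in WT (-1.64 ± 0.15). The stress transcription factor gene atf1 (-1.16 ± 0.14) and the catalase gene ctt1 (-1.10 ± 0.21) fell as well. The 1 rise was that of sro1 (1.32 ± 0.23). The small heat shock gene hsp9 did not pass (-0.13 ± 0.13), and the call on hsp16 (-0.89 ± 0.25) was lost without SD1 array 1, SD1 array 3 or WT array 2. Oxidative stress genes did not share one direction: 11 of 23 rose and 5 fell. Without SD1 array 1, SD1 array 3 or WT array 2, 7 rose. The sulfiredoxin gene srx1 had 10.72, 11.62 and 11.25 in SD1, against 8.80, 8.91 and 9.52 in WT (2.12 ± 0.27), and the glutathione transferase gene gst3 fell (-0.90 ± 0.13). Heat shock proteins and chaperones had 4 of 23 higher and 5 lower (block 7 and 9; 9 lower with quantile normalization), and 2 were higher without SD1 array 2 or WT array 2.

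**Figure D5:**
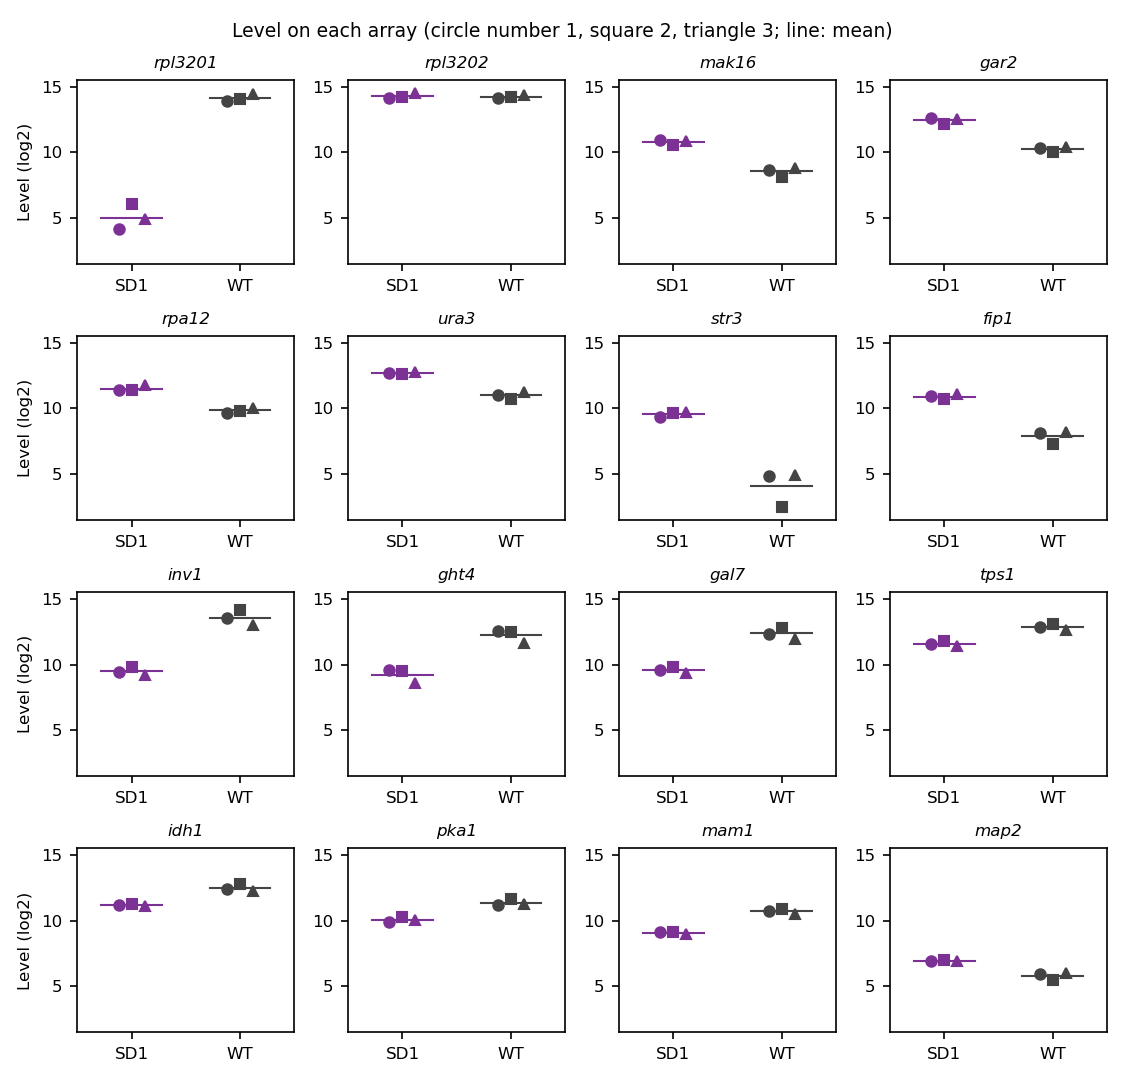
Level (log2) on each array for 16 genes, SD1 left and WT right, with circles, squares and triangles for replicate numbers 1, 2 and 3 and a line at each mean. Apart from rpl3202, which lies at 14.11 to 14.48 in both strains, the 3 SD1 arrays lie wholly above or wholly below the 3 WT arrays in every panel. Such separation held for 1260 of the 1269 calls over all probe sets.

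Breakdown and recycling were covered by several lists, to be read beside 19.5% of all probe sets higher and 23.7% lower. In autophagy 9 of 19 genes fell and 1 rose (median -0.60; -0.35 without WT array 2). The block gave 15 and 2, and the falls numbered 14 without WT array 1 and 6 without WT array 2. The rise, of atg12 (0.41 ± 0.10, named after its value was seen), was lost without SD1 array 3, and 2 genes rose without SD1 array 1 and with median centring or quantile normalization. The lipid transfer gene atg2 had 7.81, 7.76 and 7.99 in SD1, against 8.74, 9.67 and 9.01 in WT (-1.29 ± 0.21), and atg17, a scaffold gene of autophagosome formation, was at -0.90 ± 0.14. The vacuolar protease gene isp6 fell (-0.69 ± 0.13), while vacuolar ATPase and protease genes together had 1 of 17 higher and 3 lower (3 higher without WT array 1 or with quantile normalization; 5 with the block). Ubiquitin ligase complexes had 11 of 32 lower and 1 higher (block 17 and 2; 2 higher with quantile normalization; without WT array 2, 8 and 0; the rise was also lost without SD1 array 3 or WT array 3). Subunit genes of the anaphase-promoting complex, cut4 (-1.07 ± 0.17) and apc5 (-0.66 ± 0.09), and its activator gene srw1 (-0.81 ± 0.14) fell. The proteasome had 5 of 26 lower and 0 higher, but 14 lower with the block, 12 with quantile normalization, 2 with median centring and 2 or 3 without any single array other than SD1 array 1. Among the called were rpn2 (-0.62 ± 0.11) and rpn1302 (-0.77 ± 0.11).

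In the growth-signalling pathway of the TOR kinases 12 of 21 genes were lower and 2 higher (median -0.28), with small changes: 6 or 7 were lower without SD1 array 1, SD1 array 3, WT array 2 or WT array 3. The TOR inhibitor gene tsc1 had 9.42, 9.41 and 9.51 in SD1, against 10.09, 10.34 and 10.13 in WT (-0.74 ± 0.09), and the TORC2 subunit gene ste20 was at -0.69 ± 0.12. The kinase gene ppk32 rose (1.07 ± 0.11). The secretory pathway had 16 of 33 lower and 1 higher (median -0.28), with 8 lower without SD1 array 3, 11 without WT array 2 and 8 when arrays were centred on their medians. Its signal peptidase gene sec11 fell by 0.63 ± 0.10, and sec66, of the translocon, rose by 0.70 ± 0.13. Actin and cytokinesis had 14 of 27 lower and 1 higher (median -0.26), with 9 lower and 0 higher without SD1 array 3. The fimbrin gene fim1 (-0.58 ± 0.09) and the type I myosin gene myo1 (-0.58 ± 0.10) fell. All falls in these 2 lists were under 2-fold.

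Mating genes were set apart by cell type, since M and P cells each express their own pheromone and receptor genes. Of the 7 measured M cell markers 6 fell and 0 rose (median -0.81; 4 fell without WT array 2). The M factor exporter gene mam1 had 9.16, 9.11 and 8.97 in SD1, against 10.75, 10.92 and 10.54 in WT (-1.66 ± 0.11, adjusted p = 6.7e-05). The M factor gene mfm1 was measured by several probe sets that fell alike, one of them at 6.33, 6.06 and 5.93 in SD1, against 7.48, 7.46 and 7.19 in WT (-1.27 ± 0.14). The call on mfm2 (-1.35 ± 0.43) was lost without SD1 array 2, SD1 array 3, WT array 1 or WT array 2, that on mfm3 (-0.72 ± 0.24) with median centring or quantile normalization and without SD1 array 2, SD1 array 3, WT array 1 or WT array 3, and that on mam3 (-0.58 ± 0.19) without SD1 array 1, WT array 2 or WT array 3. Of the 4 P cell markers only the P factor gene map2 was called, with 6.91, 7.005 and 6.90 in SD1, against 5.98, 5.50 and 5.995 in WT (1.11 ± 0.13). The others, map1, map3 and map4, lay between -0.23 and -0.00, and with the block map4 was called lower. In such bulk RNA, fewer cells of a type and less RNA per cell cannot be told apart, and the mating type of the strains is not given in the sources used here.

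Of the 30 measured genes of pheromone response and mating 11 fell and 6 rose (3 rose without SD1 array 3), the M and P markers other than mam3 and map4 included. The kinase gene byr2 of the pheromone pathway (-1.09 ± 0.13) and ste7 (-1.12 ± 0.14) fell, and the transcription factor gene ste11, named after its value was seen, was at 0.65 ± 0.20 (adjusted p = 0.0299), a call lost with all probe sets in the fit and without SD1 array 2, SD1 array 3, WT array 1 or WT array 2. Meiosis and spore formation had 3 of 37 higher and 3 lower (block 6 and 9; 1 higher without SD1 array 2; 6 lower without WT array 1 or with quantile normalization). The 91 mug genes, named for rising in meiosis, had 16 higher and 22 lower. These shares are near the 19.5% higher and 23.7% lower over all probe sets, so the list as a whole does not stand out. Among them mug14 had 10.38, 9.56 and 9.34 in SD1, against 13.11, 13.31 and 11.90 in WT (-3.01 ± 0.47), and mug115 had 6.39, 7.09 and 7.24, against 4.54, 4.76 and 5.30 in WT (2.04 ± 0.30). For mug115, WT arrays 1 and 2 lay below the background level, so the size of its rise is uncertain.

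Some genes for transcription at the start of S phase were lower in SD1. Of 21 genes of G1-S transcription 10 fell and 1 rose (median -0.56). There were 6 falls without SD1 array 3 and 7 without WT array 2. Over all probe sets the falls numbered 497 and 537 in these fits, against 696 with all arrays. The activator gene res2 had 6.09, 6.34 and 6.44 in SD1, against 7.27, 8.29 and 7.66 in WT (-1.45 ± 0.24), and the repressor genes yox1 (-1.25 ± 0.25) and nrm1 (-0.95 ± 0.12) fell too. The target genes cdc18 (-0.59 ± 0.28), cdt1 (-0.90 ± 0.48) and cdc22 (-0.73 ± 0.32), named after their values were seen, did not pass. Fitted on the SD1 and WT arrays alone cdc18 and cdc22 passed (adjusted p = 0.0348 and 0.0339), and with the block on those arrays all of them did. DNA replication genes went both ways, with 9 of 37 higher and 11 lower (6 lower without SD1 array 3), such as orc2 (0.69 ± 0.10) and cdc23 (-0.68 ± 0.11). Histone genes had 3 of 14 higher and 1 lower (block 4 lower): hhf2 (0.35 ± 0.06) and hht2 (0.32 ± 0.07), an H4 and an H3 gene, rose, and the 1 fall, of the centromeric H3 variant gene cnp1 (-0.44 ± 0.16), was lost with the block, with median centring or quantile normalization, and without any single array other than WT array 3.

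Splicing had 20 of 75 higher and 5 lower (median 0.08), and 13 higher without SD1 array 3. Over all probe sets 19.5% were higher and 23.7% lower. The largest rise was prp43 (1.45 ± 0.19), a helicase gene whose protein also acts in ribosome assembly in budding yeast, and the kinase gene prp4 was at 1.02 ± 0.19. Falls included spf38 (-0.87 ± 0.10), and numbered 3 without WT array 2. In nuclear transport 3 of 31 rose and 5 fell (block 6 and 8; 5 higher with median centring or quantile normalization; 3 lower without SD1 array 1 or SD1 array 3). The importin gene kap123, for a carrier of ribosomal proteins in budding yeast, had 12.55, 12.37 and 12.43 in SD1, against 11.18, 10.72 and 11.20 in WT (1.42 ± 0.13), and nup131 fell (-0.99 ± 0.17). Kinetochore and spindle genes had 6 of 31 higher and 6 lower, with sim4 at 1.54 ± 0.28 and mph1 at -0.59 ± 0.07. Chromatin remodelling and histone modification had 6 of 36 higher and 6 lower, with the acetyltransferase gene mst1 at 0.89 ± 0.12. In heterochromatin and RNA interference 6 of 24 were higher and 4 lower (block 7 and 7).

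The cell surface was covered by several lists, to be read beside 19.5% of all probe sets higher and 23.7% lower. Of the 3 measured flocculin and agglutinin genes (11 listed) the flocculin gene pfl8 rose and had 9.72, 9.12 and 10.05 in SD1, against 7.40, 7.37 and 7.77 in WT (2.12 ± 0.26). The agglutinin gene mam3, an M cell marker given above, was the 1 fall, and with the block 2 fell. Of 16 regulators of flocculation and filamentation 2 rose and 6 fell. The activator gene mbx2 had 9.15, 8.90 and 9.81 in SD1, against 6.63, 7.45 and 7.32 in WT (2.16 ± 0.30), and sre1, of the sterol response, was at -0.75 ± 0.11. Galactosylation and mannosylation had 5 of 24 higher and 5 lower (3 lower with median centring): the galactosyltransferase gene gmh1 had 6.61, 6.67 and 6.72 in SD1, against 8.68, 10.05 and 8.84 in WT (-2.52 ± 0.31), the mannosyltransferase genes omh6 (-0.70 ± 0.08) and omh4 (-0.69 ± 0.10) fell, and omh5 (1.12 ± 0.20) and omh1 (0.65 ± 0.12) rose. Glucan synthesis and remodelling had 5 of 28 higher and 8 lower (block 9 and 11), and 3 were higher without SD1 array 2, SD1 array 3 or WT array 2. The glucanase gene exg3 fell (-1.06 ± 0.12). Cell separation had 4 of 13 lower and 0 higher (block 6 and 2), led by rgf3 (-0.86 ± 0.17) and the transcription factor gene sep1 (-0.65 ± 0.09).

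The remaining lists held few calls, or calls in both directions, beside 19.5% higher and 23.7% lower over all probe sets. Sterol synthesis had 6 of 23 higher and 5 lower (block 6 and 10), with erg32 at 1.32 ± 0.25 and erg12 at -0.92 ± 0.09. The stress-activated kinase pathway had 2 of 19 higher and 2 lower (block 5 and 3; 4 higher without SD1 array 1 and with median centring or quantile normalization): cmk2 rose (1.24 ± 0.21), and atf1, named above, fell. Fatty acid synthesis had 2 of 7 higher and 1 lower (2 lower with the block or quantile normalization), the fall being lost with median centring and without SD1 array 2, SD1 array 3 or WT array 1, and the biotin synthesis gene bio2 rose (0.66 ± 0.09). Thiamine synthesis had 2 of 9 higher and 0 lower (block 2 lower; 1 without WT array 1 or with median centring or quantile normalization), with the regulator gene thi1 at 0.51 ± 0.08. Phosphate acquisition had 1 of 4 higher, a call lost without SD1 array 1 or 2 or WT array 2 or 3. Telomere and subtelomere genes had 3 of 12 higher and 3 lower (block 3 and 5; 0 or 1 lower without SD1 array 1, SD1 array 3, WT array 2 or WT array 3), with rif1 at 0.56 ± 0.08. Mediator had 2 of 18 higher and 3 lower (1 higher without SD1 array 1, SD1 array 3, WT array 2 or WT array 3), with med18 at -0.47 ± 0.07. Among the wtf spore-killer genes 1 of 16 was higher and 1 lower (block 2 and 3; 2 higher with either scaling alternative and 2 lower with quantile normalization); the rise was lost without SD1 array 2 or 3 or WT array 1 or 3 (2 rose without SD1 array 1), and the fall without WT array 2 (4 fell without WT array 1). Selection and auxotrophy markers had 3 of 9 higher and 1 lower (block 5 and 2; 5 higher without WT array 1; 2 lower without SD1 array 2).

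Outside the lists, the larger named changes were those of ani1, a prolyl isomerase of the FKBP family, with 12.59, 12.14 and 12.49 in SD1, against 9.999, 9.37 and 10.09 in WT (2.58 ± 0.19), and of dbp2, an RNA helicase gene, with 12.67, 12.16 and 12.50, against 10.50, 9.71 and 10.48 in WT (2.22 ± 0.22). The copper amine oxidase gene cao2 had 8.06, 8.57 and 8.45 in SD1, against 11.51, 12.64 and 11.73 in WT (-3.60 ± 0.30). The dehydrogenase gene tms1 was at -2.45 ± 0.27 and the alanine racemase gene alr2 at -2.51 ± 0.57, with the SD1 array numbered 3 below the background level for alr2. In each of these 5 genes the strains did not overlap, but the rule that picked the largest changes required this, so it adds no support.

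Some genes were measured by several probe sets, which did not always give the same call; sets shared with near-identical genes are uncertain. For the spore-killer gene wtf13 one probe set rose by 1.45 ± 0.15 and the other was at 0.24 ± 0.36. All WT arrays of the set that rose lay below the background level, so the size of its rise is uncertain. For wtf9 one fell by 1.0001 ± 0.21 beside 0.06 ± 0.26. Of the 3 probe sets of wtf20 one was called (1.19 ± 0.42), and all were with the block. Neither probe set of wtf5 was called (0.09 and -0.35), apart from the second with the block. The malate permease gene mae1 had 1 of 3 called (0.37 ± 0.06), with the others at 0.29 and 0.23, and the ubiquitin fusion gene ubi3 had 1 called (0.22 ± 0.07) beside 0.07 ± 0.08. The probe sets of the histone genes hhf1, hhf3 and hht1 lay between -0.38 and -0.05 with none called, and with the block all but one of hhf3 were called lower. Those of the ribosomal protein genes rpl3702 and rps3002 lay between 0.02 and 0.16 with none called, and with the block those of rpl3702 were.

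Pairs of neighbouring genes that both changed at least 2-fold in the same direction were few: 8 of the 1698 pairs of measured genes next to each other in the annotation. They were fip1 with fio1, gal10 with gal1, utp10 with arx1, cut4 with pka1, car1 with fet4, fus1 with hri1, pth1 with mhf1, and mug57 with mug97. The last pair overlaps in the annotation, and whether RNA of one gene added to the signal of the other was not tested.

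SD1 and SD2, which lacks the other L32 gene, share the WT arrays as control, so the agreement of their changes is no result here. Set against each other directly, they differed in 5 probe sets (0.17%; 25, or 0.851%, with the block; 334 at an unadjusted p under 0.05): those of the deleted genes, fip1, and a pair of probe sets of tlh2. For fip1 the level was 10.92, 10.71 and 11.08 in SD1, against 8.62, 9.31 and 8.83 in SD2 and 8.16, 7.27 and 8.24 in WT, with all SD1 arrays above all SD2 arrays. With the block this difference was not called (adjusted p = 0.0527). For 1 of the probe sets of tlh2, a subtelomeric helicase gene, it was 8.23, 8.36 and 7.87 in SD1, against 6.42, 5.53 and 6.03 in SD2 and 7.81, 7.93 and 7.60 in WT. The SD2 arrays lay below all SD1 and WT arrays there. Relative to WT the SD1 difference at that probe set did not pass (0.37, adjusted p = 0.209), except with the block on the SD1 and WT arrays alone (adjusted p = 0.0089). The 4 probe sets of tlh2 lay between 0.28 and 0.75, with 1 of them called higher in SD1, or 3 with the block. For the 1 called without the block, all WT arrays lay below the background level.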

How the data were processed

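The authors deposited 1 table of log2 expression values for 9 Affymetrix arrays, normalized by RMA in Partek per the submitters' processing notes; versions are not given in the sources used here. Per the labels' protocols, Trizol-extracted total RNA (500 ng) was made into biotinylated cRNA. The deposited log2 values were used unchanged.

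S. pombe probe sets were those with a lowercase symbol in the platform annotation, plus 4 identified by S. pombe gene number, 2937 in all; 2917 had 1 gene symbol and 20 several, and none was named from those. A mean per strain was fitted over all 9 arrays with limma 3.58.1 (lmFit, eBayes, R 4.3.3), with Benjamini-Hochberg adjustment over the 2937 and calls at 0.05. This fit had no replicate block, because the labels call the arrays biological replicates and state no pairing. SE is the fit's standard error. Lists count a gene once, by 1 probe set. A fold is given as a bound only where all arrays of a strain were at or below the background level. The script was tested on simulated data.

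Named genes were drawn from a rule's selection: the 15 largest rises and falls whose strains did not overlap, up to 6 called members per list, rpl3201 and its neighbours, genes with several probe sets, genes called between SD2 and SD1, the 8 smallest adjusted p-values and the 6 widest spreads between numbers. Genes outside it, most of them marked where they are named, were chosen after their values were seen. The comparison, lists and rule were chosen with earlier results of these data known. Same-numbered SD1 and WT arrays deviated together (correlations 0.85, 0.28 and 0.59, all over 0.1). The numbers were taken to pair the arrays, as processing sets, in the block fits and the same-number differences. Pairs of different numbers ranged from -0.78 to 0.46, of which SD1 array 2 with WT array 3 (0.41) and SD1 array 3 with WT array 2 (0.46) exceeded the number 2 pair. Alternatives were the replicate block, only 6 arrays, median centring, quantile normalization, dim probe sets left out, all probe sets in the fit, an intensity trend, and leaving out each array or number. No sequence was used here.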

Additional observations from a re-analysis of the deposited data

Results flagged for a closer look

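In all, 3 probe sets differed between SD2 and SD1 beyond the deleted genes themselves, by limma's test of that difference. For fip1 SD2 minus SD1 was -1.98, and with the replicate block this was not called (adjusted p = 0.0527). For tlh2 it was -2.16 and -1.79 at a pair of probe sets, and the SD1 difference from WT did not pass at either. With the block it was called higher at the second. With the block on the SD1 and WT arrays alone it was called higher at the first (limma, adjusted p = 0.0089).

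Probe sets with no name in the annotation used here also carried a signal: of 5177, 962 were called between SD1 and WT when all probe sets were fitted, 491 higher and 471 lower. At least 2-fold, 202 were higher and 88 lower. In the same fit 493 of the 2937 S. pombe probe sets were higher and 559 lower, a larger share. Of the 2601 budding yeast probe sets, 32 were called in it. Only 2059 of the unnamed probe sets lay above the background level on all 9 arrays.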

How the results depend on the processing

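The counts of higher and lower probe sets stayed within 1.5 times of 573 and 696 under every alternative run except leaving out a whole replicate number. Without number 3, 278 were higher and 220 lower, and without number 2, 453 were lower. Of the counts of higher or lower genes per list, 87 moved beyond 1.5 times without number 3 and 49 did not. Without number 2, 45 moved and 91 did not. Of 248 genes followed, 36 lost their call without number 3, 21 without number 2 and 5 without number 1. They include amt1, alr2, hhf2, hht2, sfc6 and glt1 without number 3, ade6, fet4 and ght1 without number 2, and gdh1 in both cases. Over all settings that left out an array or a number, higher calls ranged from 278 to 654, lower calls from 220 to 841, those of at least 2-fold from 132 to 172 higher and from 58 to 122 lower, and the rpl3201 difference from -9.63 to -8.66. Median centring gave 600 higher and 591 lower. The rpl3202 difference, near 0 and never called, ranged from -0.061 to 0.11. Other named genes that were not called and lay near 0 changed sign when an array or number was left out: map1 between -0.32 and 0.058, map3 between -0.092 and 0.072, ogm4 between -0.079 and 0.043, pda1 between -0.016 and 0.093, pdb1 between -0.12 and 0.038, rps1402 between -0.079 and 0.12, rps3002 between -0.0065 and 0.058, rpt1 between -0.16 and 0.044, scr1 between -0.12 and 0.088, sfc4 between -0.42 and 0.12, tsr3 between -0.10 and 0.016, ura2 between -0.020 and 0.018, wtf13 between -0.11 and 0.56 and wtf9 between -0.19 and 0.46. Signs also changed with median centring, for map3 0.042, ogm4 0.040, scr1 0.023, tsr3 0.010 and ura2 0.038. Signs also changed with quantile normalization, for map3 0.035, ogm4 0.048, rps1402 -0.039, rps3002 -0.0018, scr1 0.0059, tsr3 0.0092 and ura2 0.047. Their cause was not tested. With the replicate block, 25 probe sets differed between SD2 and SD1, against 5 without it, and 787 were higher and 969 lower in SD1. Taking 1 probe set per named gene, the block ended the calls between SD1 and WT on cnp1, ght7 and trz1 and made those on fbp1, hhf1, hhf3, hht1, lat1, map4, rpl3702, rrn11, sfc1, sid4, ura4, wtf20 and wtf5, and changed no other. It also made calls at further probe sets of genes with several, and ended the call on fip1 between SD2 and SD1. Copies near the top of the scale and probe sets near background limit what could be measured, and WT array 2, which stands apart, weighs on many calls.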
